A study of Capra hircus with 4 samples.

Results

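Among the assembled long non-coding RNA (lncRNA) transcripts of goat endometrium, 672 of 226416 (0.297%) were placed by their class code on a known gene, 581 with code j and 91 with code o. A class code is the mark that transcript assembly software gives for how an assembled transcript lies against the annotation. Code j is a transcript that shares at least 1 splice junction with a known transcript without matching it, and code o is another overlap with a known exon. All transcripts carrying either code in the deposited table of lncRNAs were taken, and no measured level was used to choose them. Of the rest, 222573 carried the code for transcripts between genes (code u) and 3171 that for overlap with an exon on the opposite strand (code x).

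The endometrium, the lining of the uterus, came from multiparous Xinong Saanen dairy goats of 24 months whose estrus had been synchronized and which had mated naturally. It was sampled on the front wall of the uterus at gestational day 5, called pre-receptive (2 libraries, 10 goats), and at gestational day 15, called receptive (2 libraries, 10 goats). All animals had been mated and were killed after barbiturate, and the labels list no unmated group. The labels do not say whether a library is 1 goat or a pool.

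Transcripts of these codes can arise where a gene makes RNA beyond its annotated forms. Examples are a skipped or retained piece, another start or another end. Such RNAs can lose the reading frame and be non-coding although they lie in a protein-coding gene. They can also be further forms of annotated lncRNAs. Whether the transcripts described here are such forms was not tested. In ruminants the days before implantation bring progesterone-driven gland secretion and, later, the response to interferon tau from the conceptus. The host gene of each transcript is therefore given below as background to its position, without a claim about the gene's own level.

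Depth per library is unknown, because the columns used hold no counts. Of the value columns, 4 carry library names and 2 carry set names that could not be tied to the labels. Their values are left out, so no level and no spread between libraries can be given here, and the tissue was not checked against marker genes. Differences between the stages are given only as the log2 change in the authors' comparison of a set T with a set C. The labels do not tell which of these sets is day 5 and which is day 15, so directions stay T against C.

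The host genes were of mixed kinds, and 161 of the 477 had a non-coding RNA record as nearest reference. For 292 of the 672 transcripts (43.5%, 95% Wilson interval 39.8 to 47.2, counting error only) the nearest reference was a non-coding RNA record. A protein record was nearest for 223 (33.2%), an mRNA record for 82 (12.2%) and a bare gene identifier for 75 (11.2%). Codes j and o stood apart in this. Non-coding RNA records made up 278 of 581 for code j (47.8%, interval 43.8 to 51.9) and 14 of 91 for code o (15.4%, interval 9.39 to 24.2). Bare gene identifiers made up 6.54% for code j (interval 4.80 to 8.85) and 40.7% for code o (interval 31.1 to 50.9). For the antisense code x, by comparison, non-coding RNA records made up 189 of 3171 (5.96%, interval 5.19 to 6.84). Transcripts of 1 gene share a record and are not independent, so the intervals are narrower than they would be over genes, and no test was made.

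**Figure D1:**
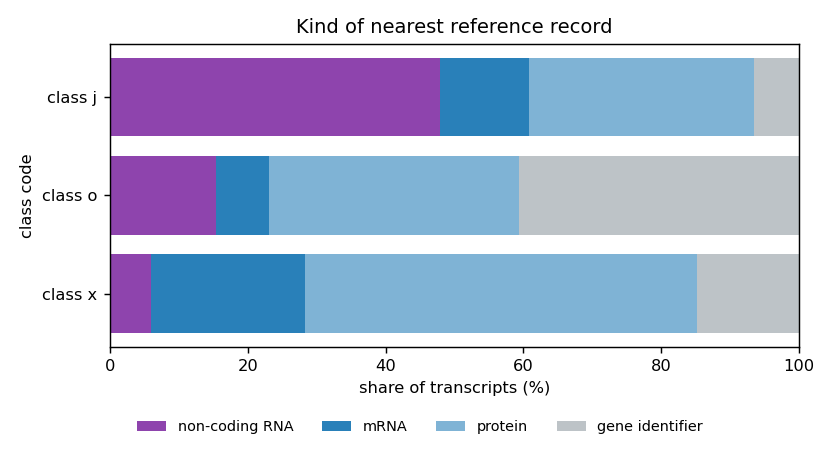
Share of transcripts (%, horizontal axis) by the kind of nearest reference record, for code j, code o and the antisense code x. Non-coding RNA records take 47.8% of code j, 15.4% of code o and 5.96% of code x.

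The 672 transcripts belonged to 477 host genes, 203 with a symbol and 274 with a LOC name only. RefSeq's genes of assembly ARS1.2, used for names and kinds only, held 389 of them: 231 protein-coding genes, 106 lncRNA genes, 47 pseudogenes and 5 transcribed pseudogenes. It gave a symbol to 17 of the LOC names. Of the 112 matched host genes with a non-coding RNA record, 100 were lncRNA genes in that table and 10 were protein-coding. Of the 226 matched hosts with an mRNA or protein record, 218 were protein-coding and 4 were lncRNA genes. Of the 51 matched hosts with a bare gene identifier, 45 were pseudogenes. Codes j and o met in 6 host genes, among them C17H4orf46 and LOC102171397, which the table names ZFAND2A. Antisense transcripts of code x were listed for 74 of the 477 host genes, which is 15.5% of these hosts and 2.81% of the 2635 genes of code x.

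Most host genes had a single such transcript. There was 1 for 370 genes, 2 for 60, 3 for 21 and 4 or more for 26. LOC102179243, a lncRNA gene on chromosome 22 (36320295 to 36541173), had the most, 7 transcripts of code j with 6 different start sites and CPC scores from -1.11 to -1.09. CPC and CNCI are the authors' scores of coding potential, lower for RNAs less like coding sequence. LOC102173511, a lncRNA gene also on chromosome 22 (52089774 to 52159610), had 6. So did LOC102180738 on chromosome 5 (110615186 to 110633684), which the RefSeq table names ZBED4, a zinc finger gene. Its nearest record in the deposited annotation was a non-coding RNA. LOC102171392 on chromosome 23 (26230667 to 26253846) had 3 of code j and 3 of code o. A further group of 6 lay within 100 kb of each other on chromosome 12 (17328289 to 17443056) at LOC102188147, LOC102188416 and LOC102188604. The named genes with the most were CHTOP, whose product acts in mRNA export, and TRA2A, a splicing regulator, with 5 each, and then NRG4, LYRM7, MTCP1 and FOPNL with 4 each.

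The hosts described next by their known role were picked by hand after the symbols had been seen. They are examples and not full counts of a role, and no enrichment was tested. Among hosts that act in RNA processing, besides CHTOP and TRA2A, were the splicing factor genes SRSF10 (2 transcripts), SRSF12 (3) and LUC7L (2), the RNA-binding protein genes RBM3, RBM11 and RBM39, and TSEN15, a subunit of the tRNA splicing endonuclease. These 9 hosts had 21 transcripts, all of code j, with CPC scores from -1.25 to -1.04. LOC102180637, which the RefSeq table names SRSF3, another splicing factor gene, had 1 more of code j.

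Other hosts belong to growth factor, BMP and Wnt signalling. HBEGF, a ligand of the EGF receptor that is known from mouse implantation, had 1 of code j on chromosome 7 (47718860 to 47730427) with a CPC score of -1.02. NRG4, a ligand of ERBB4, had 4 on chromosome 21 (28962090 to 29176384), with CPC scores from -1.19 to -1.004. BMPR2, the type II receptor for bone morphogenetic proteins, had 1 of code o on chromosome 2 (90175420 to 90323514). Its CPC score of -1.39 was among the 5 lowest of the 672. Its CNCI score of -0.00041 was the highest value that occurs in the table, and other hosts, such as LRAT, OAS3 and TSEN15, shared it. ID1, a transcriptional target of the bone morphogenetic protein pathway, lay in a locus of 859 bp on chromosome 13. RSPO2, an enhancer of Wnt signalling, and APCDD1 and CXXC4, both inhibitors of it, had 1 each. The nearest record at RSPO2 was a non-coding RNA.

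Some hosts belong to the interferon and chemokine response. CXCL9 and CXCL11, chemokines induced by interferon, were listed with the same locus on chromosome 6 (88061153 to 88200920). IFI44L, OAS3 and the DNA sensor gene AIM2 had 1 each. Hosts with a mitochondrial product included the complex I subunits NDUFA1 and NDUFB2, the ribosomal proteins MRPS24 and MRPS28, and LYRM7, an assembly factor of complex III. The transcript at ND5 was on the mitochondrial chromosome itself, which held 2 lncRNAs in all, and its locus spanned 15727 bp. Hosts of the ubiquitin pathway included the conjugating enzymes UBE2D1, UBE2G2 and UBE2W and the ligases NEDD4L, RNF126, RNF138 and ZNRF2. Under RefSeq names they also included LOC102187703 as UBE2L3, a conjugating enzyme, and LOC102187112 as RBX1, a ligase subunit, with 1 transcript of code j each. Transcription factor hosts included AHR, FOXO3, KLF3, BACH2 and YY1. ALOX5AP, needed for leukotriene synthesis, had 1 and PLA2G10, a secreted phospholipase, had 2.

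The loci were long. The median span was 26004 bp (quartiles 10951 and 57897, range 240 to 1559634), against 1409 bp for code u and 20316 bp for code x. Spans of 20 kb or more made up 58.5%, against 50.1% of code x and 2.13% of code u. These are spans of the whole assembled locus, introns and host gene included, and not lengths of the transcript. The 672 transcripts had 475 loci, and 306 of them shared a locus with another of the 672. In 74 of the 109 shared loci the transcripts had 2 or more start sites although the locus was the same. Transcripts of code u were listed with the same locus for 190 of the 672 (28.3%) and transcripts of code x for 124 (18.5%), and every overlap found at 1 bp was such an identical locus. The positions used were those of loci, so a shared locus does not show that the transcripts themselves overlap. Counted by locus, 105 of the 475 loci were also listed for code u and 90 for code x. For code o the share of transcripts with a code u transcript was 40.7% (interval 31.1 to 50.9), against 26.3% for code j (interval 22.9 to 30.1). Transcripts of 1 locus share this trait and are not independent. These intervals are therefore narrower than they would be over loci, and no test was made.

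**Figure D2:**
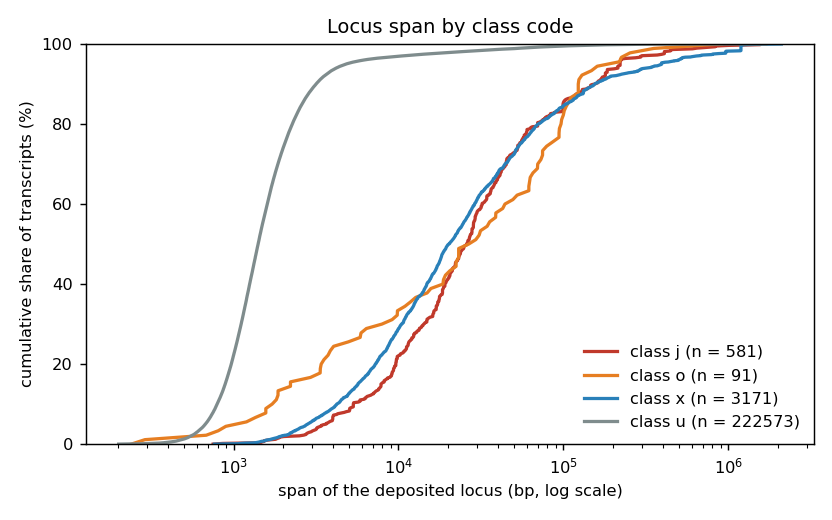
Cumulative share of transcripts (%, vertical axis) by the span of their deposited locus (bp, logarithmic horizontal axis) for each class code. Codes j and o, with medians of 26004 and 26667 bp, lie near code x and far to the right of code u with 1409 bp.

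FHIT, a fragile-site gene, and NEGR1, a neuronal adhesion gene, gave the longest loci. The 2 FHIT transcripts of code j lay in 1559634 bp on chromosome 22 (39940762 to 41500395), and that of NEGR1 in 1012286 bp on chromosome 3 (69335428 to 70347713). Next came the pseudogene LOC102183654 on chromosome 25 with 909778 bp and LOC102174689 on chromosome 19 with 834810 bp, named CA10 in the RefSeq table. At the other end were LOC102177012 (240 bp, chromosome 22), LOC102189108 (290 bp, chromosome 6), LOC102189638 (683 bp, chromosome 3), YPEL4 (752 bp, chromosome 15) and LOC102170545 (807 bp, chromosome 18). Of these 5, all but YPEL4 carried code o.

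Coding potential scores of these transcripts lay in the range of the whole table. The median CPC score was -1.11 for code j and -1.13 for code o, and -1.13 for codes u and x. The median CNCI score was -0.039 for code j and -0.029 for code o, against -0.033 for code u. The highest CPC score of all lncRNAs in the table was -1, and every CNCI score was below 0. Scores may have served to select the lncRNAs, so they are no separate evidence on coding. Nothing is read from the like ranges of the codes, which end near the same limit. The lowest CPC score was -1.42, at CLPSL2, a colipase-like gene on chromosome 23, followed by -1.40 at the lncRNA gene LOC102188416 on chromosome 12. LOC102180089 on chromosome 2 had 2 transcripts of code o at -1.39 and -1.38. The transcripts nearest to -1 were those at LOC102169082 on the X chromosome (-1.00006) and at FOPNL on chromosome 25 (-1.00039).

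The share of these transcripts among the lncRNAs of a chromosome ran from 0.115% on chromosome 20 (8 of 6942) to 0.691% on chromosome 22 (32 of 4633), leaving out the mitochondrial chromosome. Chromosomes 22, 23, 19 and 18 were each above 0.6%, and chromosomes 20, 17, 13 and 27 were each below 0.16%. The highest number was 44, on chromosome 3. Of the 672 transcripts, 347 (51.6%) lay within 100 kb of another, against 58.9% for code x. The 347 include the 306 that shared a locus with another of the 672. Code x holds more transcripts, 3171, so nothing is read from the difference between the shares. Those near a transcript of a different host gene were fewer, 77 (11.5%), in 27 runs.

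**Figure D3:**
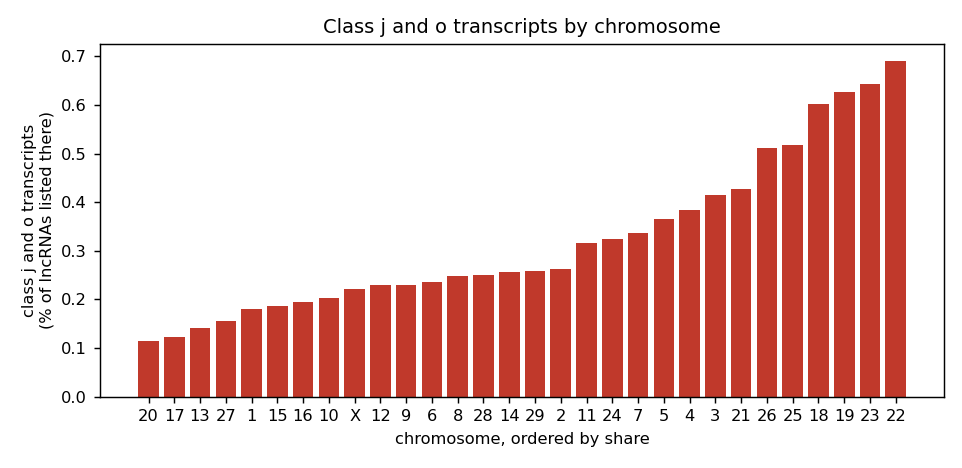
Class j and o transcripts as a share (%, vertical axis) of all lncRNAs listed on each chromosome (horizontal axis, ordered by share, mitochondrial chromosome left out). The share runs from 0.115% on chromosome 20 to 0.691% on chromosome 22.

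The comparison of the stages was deposited as set T against set C. In the authors' deposited table, 9 of the 672 transcripts were called (1.34%, Wilson interval 0.706 to 2.53), against 0.295% of all lncRNAs in the table. For code x it was 2 of 3171 (0.0631%) and for code u 657 of 222573 (0.295%). Of the 9, 6 were lower in T (0.893% of the 672, against 0.118% of all lncRNAs) and 3 were higher (0.446%, against 0.177%). No transcript of codes j and o had a q under 0.05, against 0.0053% of all lncRNAs, and all 9 had an unadjusted p under 0.05. The smallest q was 0.457 in the authors' deposited table, so none of the differences below passed the authors' adjustment. How many transcripts were tested or adjusted over is not known here. The shares called are therefore of all listed transcripts, tested or not. Transcripts of 1 gene are not independent, so the interval is narrower than it would be over genes. No test was made against the share of all lncRNAs. Of the 9 calls, 1 (11.1%) had an infinite log2 change, that is, a value of 0 in a set, against 383 of the other 659 calls (58.1%). The calls at MS4A13 and TMEM242 had very large finite log2 changes, of 15.33 and -10.72. Changes of such size were not counted among the other calls. Levels were not matched between the classes, and their part in the share called was not tested.

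**Figure D4:**
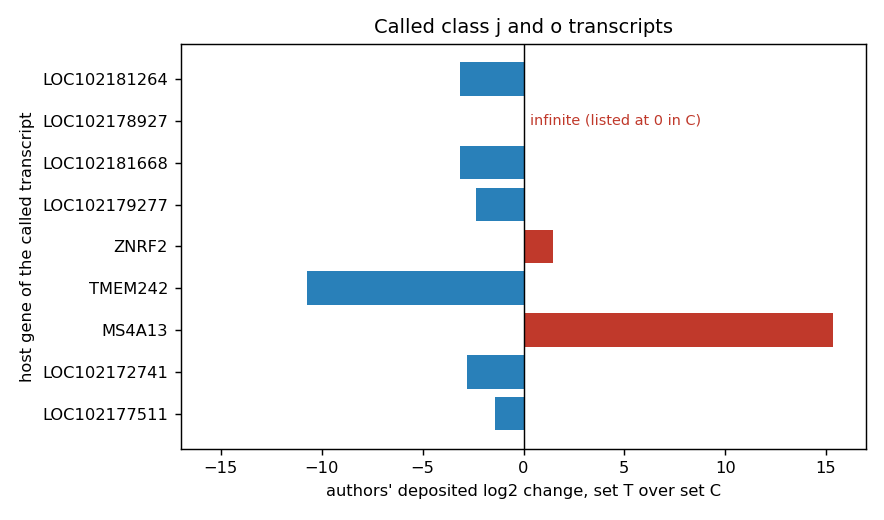
Authors' deposited log2 change of set T over set C (horizontal axis) for the 9 called transcripts, by host gene and ordered by p with the smallest on top; bars start at 0. The change is below 0 for 6 transcripts and above 0 for ZNRF2 and MS4A13, and it is infinite for LOC102178927, which was listed at 0 in C.

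Of the 6 transcripts listed lower in T, 3 lay on chromosome 6. TCONS_00406955, of code j at LOC102179277 (95076212 to 95109957), was 5.12-fold lower in T, with p = 0.0254, q = 0.703 and a log2 change of -2.36, all from the authors' deposited table. LOC102179277 is protein-coding in the RefSeq table. The next predicted target, 30418 bp away, was LOC102178994, which the table names PLAC8, a gene of a small cysteine-rich protein first described in placenta. A direction for the target transcripts of either gene was not found in the deposited tables used here.

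At 223368 bp from it lay TCONS_00406929, of code j at the lncRNA gene LOC102177511 (94844247 to 94852843). It was 2.65-fold lower in T (log2 change -1.40, p = 0.0458, q = 0.894 in the authors' deposited table). Besides a transcript of its own locus, listed higher with a p of 1 in the authors' deposited table, its predicted targets were THAP9, a gene related to DNA transposases that begins 56 bp away, and LIN54, a DNA-binding subunit of the DREAM complex of cell cycle control. All 5 THAP9 transcripts were listed lower in T as well. Only TCONS_00396253 among them had a p under 1, of 0.232 in the authors' deposited table, so little is read from the shared direction. The 8 LIN54 transcripts were split, 5 lower and 3 higher, and the smallest of their p-values there was 0.207. The call of code o, TCONS_00404458 at the pseudogene LOC102181668 (69323095 to 69345455), was the third on chromosome 6. It was 8.99-fold lower in T (log2 change -3.17, p = 0.0251, q = 0.700 in the authors' deposited table).

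Of the 9, the transcript of smallest p was TCONS_00287835, of code j at LOC102181264 on chromosome 26 (43539137 to 43550086). It was 8.76-fold lower in T (log2 change -3.13, p = 0.00675, q = 0.457 in the authors' deposited table). Its nearest record was a non-coding RNA. A further predicted target, 9680 bp away, was TEX36, a testis-expressed gene that was itself the host of an uncalled transcript of code j.

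ZNRF2, a membrane-bound ubiquitin ligase gene on chromosome 4 (63449265 to 63491580), was the host of a transcript listed higher in T. TCONS_00361221 was 2.72-fold higher (log2 change 1.45, p = 0.0276, q = 0.730 in the authors' deposited table). The 2 ZNRF2 target transcripts were also listed higher, and their p-values were 0.700 and 1 in the authors' deposited table.

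The changes at 3 further hosts were infinite or beyond 10 on the log2 scale, and no fold is given for them. TCONS_00135443, of code j at LOC102178927 on chromosome 16 (named C16H1orf115 in the RefSeq table), was higher in T and listed at 0 in C (p = 0.0228, q = 0.671 in the authors' deposited table). Its nearest record was a non-coding RNA. For the host's own target transcript, which was listed lower, the authors' deposited table gives a p of 0.105. TCONS_00469494, at TMEM242 on chromosome 9 (80091086 to 80133023), had a log2 change of -10.72 (p = 0.0309, q = 0.769 in the authors' deposited table). Its nearest record was also a non-coding RNA. TMEM242 encodes a mitochondrial membrane protein. Its 3 target transcripts and the 2 of LOC102178360 in the same locus, named LDHAL6B in the RefSeq table and related to lactate dehydrogenase, were all listed lower as well. The smallest of their p-values was 0.182 in the authors' deposited table.

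A pair of called transcripts of opposite direction lay side by side in the MS4A gene cluster of chromosome 15, which encodes membrane-spanning proteins of immune and other cells. TCONS_00125322 at MS4A13 (78693528 to 78733354) was higher in T, with a log2 change of 15.33 (p = 0.0436, q = 0.894 in the authors' deposited table). TCONS_00125327 at LOC102172741 (78733551 to 78772719), 196 bp further on, was 7.03-fold lower in T (log2 change -2.81, p = 0.0438, q = 0.894 in the authors' deposited table). LOC102172741 had an mRNA record as its reference and is a lncRNA gene in the RefSeq table. The B cell marker gene MS4A1 was a predicted target of the first, at 47507 bp. Every MS4A1 and MS4A13 target transcript had a p of 1 in the authors' deposited table.

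Of the 13 transcripts of codes j and o at the 9 called host genes, 4 were not called. At MS4A13, LOC102177511 and LOC102181668 the called and uncalled transcripts had the same start site and the same locus.

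The deposited predictions gave a target for all 9 called transcripts, against 38.2% of all 668 calls. Each of the 9 had a target at its own locus, which a position on a known gene puts within range, so nothing is read from the difference. There were 39 pairs in all, 18 of them at the same locus. A direction was given for 29 pairs, of which 20 went the same way as the lncRNA. In the authors' deposited table, 19 of these 29 target transcripts had a p of 1, and the smallest p was 0.099. Several pairs share a lncRNA and a gene, so they are no independent counts.

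In all, 8 uncalled transcripts lay on genes that were predicted targets of a called lncRNA. They include the 4 uncalled transcripts at called host genes that were counted above. In 5 cases the called lncRNA was another of the 9: those at MS4A13 (2 transcripts), TEX36, LOC102181668 and LOC102177511. The other 3 were at CXXC4, LOC102188394 and LOC102174800, which the RefSeq table names SLC2A1. The transcript at CXXC4 on chromosome 6 lay beside the code u call TCONS_00389372, listed lower in T. That at LOC102188394 on chromosome 6 lay beside the lower call TCONS_00398292, and that at LOC102174800 on chromosome 3 beside the higher call TCONS_00345241. The smallest p of a CXXC4 target transcript was 0.188 in the authors' deposited table. No target transcript of LOC102188394 or LOC102174800 had a p as small there.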

How the data were processed

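Ribosomal RNA was depleted and strand-specific paired-end libraries were made from endometrium, per the labels' protocols. TopHat, TopHat2, Cufflinks and Cuffdiff were used, per the submitters' processing notes, with no version or role; no build of the genome is named there. Class codes, loci, CPC and CNCI scores were deposited by the authors per transcript. The log2 change (T over C), p-value and q-value come from the authors' deposited table of 668 calls, in which an infinite change marks a set listed at 0. The distance class of predicted targets was deposited as text, and the p-value of target transcripts was taken from the authors' GO and KEGG tables.

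The 4 columns of single libraries and 2 columns of set FPKM values matched no label; they had been read before they were left out, and no value given rests on them, so the planned fit on values per library was not run. Deposited starts count from 0 (1 locus starts at 0), and positions here are written from 1. Loci, overlaps (at least 1 bp) and runs (gaps of at most 100 kb) were computed from positions and checked on simulated data. Intervals of shares are 95% Wilson intervals. Named transcripts were all calls, the 5 longest and shortest loci, the 5 lowest CPC scores, the 5 runs with most transcripts and transcripts on predicted target genes; other named genes were chosen after their values were seen. The transcripts and lists were chosen with earlier results of these data known. Not every predicted target gene is named. No sequence is shown, as no genome was used here. Software was Python 3.11.15 with pandas 2.3.3, numpy 2.4.6, matplotlib 3.10.9 and scipy 1.17.1.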

Additional observations from a re-analysis of the deposited data

How the results depend on the processing

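Of 14 alternatives, 10 stayed within the 95% interval of the value given above, and 4 did not. That interval was 22848 to 28472 bp for the median span and 47.9 to 55.4% for the share near another. An overlap of 50% could not give another share, because every overlap found was an identical locus. Class j alone holds 581 of the 672 transcripts, so its values are not independent of those given. The share of class j and o transcripts that were called was 1.34%, and 0% with a q under 0.05 as the rule (upper Wilson bound 0.568%), where 12 of all 226416 lncRNAs remain. The other alternatives for that share ran from 0.893 to 1.89%; the lowest left out calls with a log2 change over 10 in size and the highest counted loci, and both were chosen after seeing the data. The share of transcripts near another was 47.0% at a gap of 10 kb and 69.8% at 1 Mb, in place of 51.6% at 100 kb, since a wider gap joins more loci. The share listed with the same locus as a code u transcript was 40.7% for code o alone, and the cause was not tested. The median span ran from 24769 to 26667 bp. No paired analysis was possible because the columns of single libraries matched no label and no test was made on values per library. For the same reason no library could be left out. Depth is unknown here, so what it limits was not tested.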
